A study of Mus musculus with 10 samples.

Results

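Gdnf, Fgf9, Fgf20 and Itga8 are genes of the nephrogenic niche of the developing kidney, and the Six2 and β-catenin peaks in fixed windows around them are described here. The windows were set on the mm9 build of the mouse genome. They run from 7600000 to 7950000 on chromosome 15 for Gdnf, from 58550000 to 59200000 on chromosome 14 for Fgf9, from 41200000 to 41500000 on chromosome 8 for Fgf20 and from 11950000 to 12300000 on chromosome 2 for Itga8. A peak belonged to a window when it overlapped it. Peaks and regions are named here by their window, and their distances from the genes were not analysed. By this rule 26 of the 10348 deposited peaks were members, 8 in the Gdnf window, 9 in the Fgf9 window, 8 in the Fgf20 window and 1 in the Itga8 window.

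The peaks come from chromatin immunoprecipitation and sequencing (ChIP-seq) of nephron progenitors, the Six2-expressing cells of the kidney mesenchyme. All cells carried the BAC transgene Six2GFPcre on a mixed strain background and were sorted by FACS at stage E16.5. Six2 was mapped in freshly sorted cells (2 libraries). For β-catenin, the sorted cells were first pelleted and kept for 24 h in medium with serum and 4 µM BIO, a GSK3 inhibitor that stabilises β-catenin (2 libraries). Antibody and culture therefore changed together and cannot be told apart. The 4 input and 2 rabbit IgG mock libraries were not analysed here. The labels do not say whether the libraries of an antibody came from separate sorts.

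GDNF is secreted by the nephrogenic mesenchyme and acts through the receptor RET and its co-receptor GFRα1 on the tips of the ureteric bud, where it drives branching. FGF9 and FGF20 are secreted fibroblast growth factors that keep nephron progenitors alive and undifferentiated, and they act redundantly. Integrin α8, the product of Itga8, pairs with integrin β1 on mesenchymal cells and binds nephronectin, a matrix protein laid down by the bud. Six2 is a homeodomain factor that maintains the progenitors. β-catenin carries the canonical Wnt signal and reaches DNA through TCF/LEF factors.

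Each list holds positions only, with no score and no read count, so the depth behind a peak is unknown. The row number of a peak in its list is given as its rank, with rank 1 the first row. A peak is called found again when it overlaps a peak of its antibody's other library. The share found again falls along the lists, for Six2 replicate 1 from 76.4% in the first decile to 4.78% in the last. In Six2 replicate 2 it falls much less, from 98.1% to 69.1% in decile 9 and 74.2% in the last. Of all Six2 replicate 2 peaks, 83.1% were found again, in a partner list that is longer. How well the row number ranks the peaks of that list cannot be read from this smaller fall. The lists hold 5645 and 1622 Six2 peaks (replicates 1 and 2) and 1873 and 1208 β-catenin peaks, so a rank is also given as a percentage of its own list. The 4 libraries can be split into pairs in 3 ways, which sets the smallest exact permutation p at 0.333. The values below are therefore descriptions without a test. The input and mock libraries were not used to filter the peaks here, and whether the deposited lists were called against them is not known from the sources used.

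The 26 peaks merged, by an overlap of at least 1 bp, into 16 regions. Of these, 6 held peaks of 2 or more libraries and 10 rested on 1 library. Over all 7666 regions of the 4 lists, 26.7% held peaks of 2 or more libraries. Both Six2 libraries were called in 4 of the 16 window regions, against 17.6% of all 7666 regions. Both β-catenin libraries were called in 3 of the 16, against 7.24% of all regions. Both antibodies met in 3 of the 16, 1 each in the Gdnf, Fgf9 and Fgf20 windows, against 9.99% of all regions. Of these 3 window regions, 1 held all 4 libraries and 2 held 3 libraries. Regions of 3 libraries were 4.84% of all regions. The windows differed in which antibody was found again. Gdnf had 2 regions of both β-catenin libraries and none of both Six2 libraries. Fgf20 had 2 regions of both Six2 libraries and none of both β-catenin libraries. Fgf9 had both kinds, and Itga8 had neither. Whether the windows differ beyond the spread between libraries could not be tested. The Gdnf, Fgf9 and Fgf20 windows each held 5 regions. Adjoining stretches of the genome of the same length held 5 or more in 3.52%, 12.2% and 2.55% of cases.

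**Figure D1:**
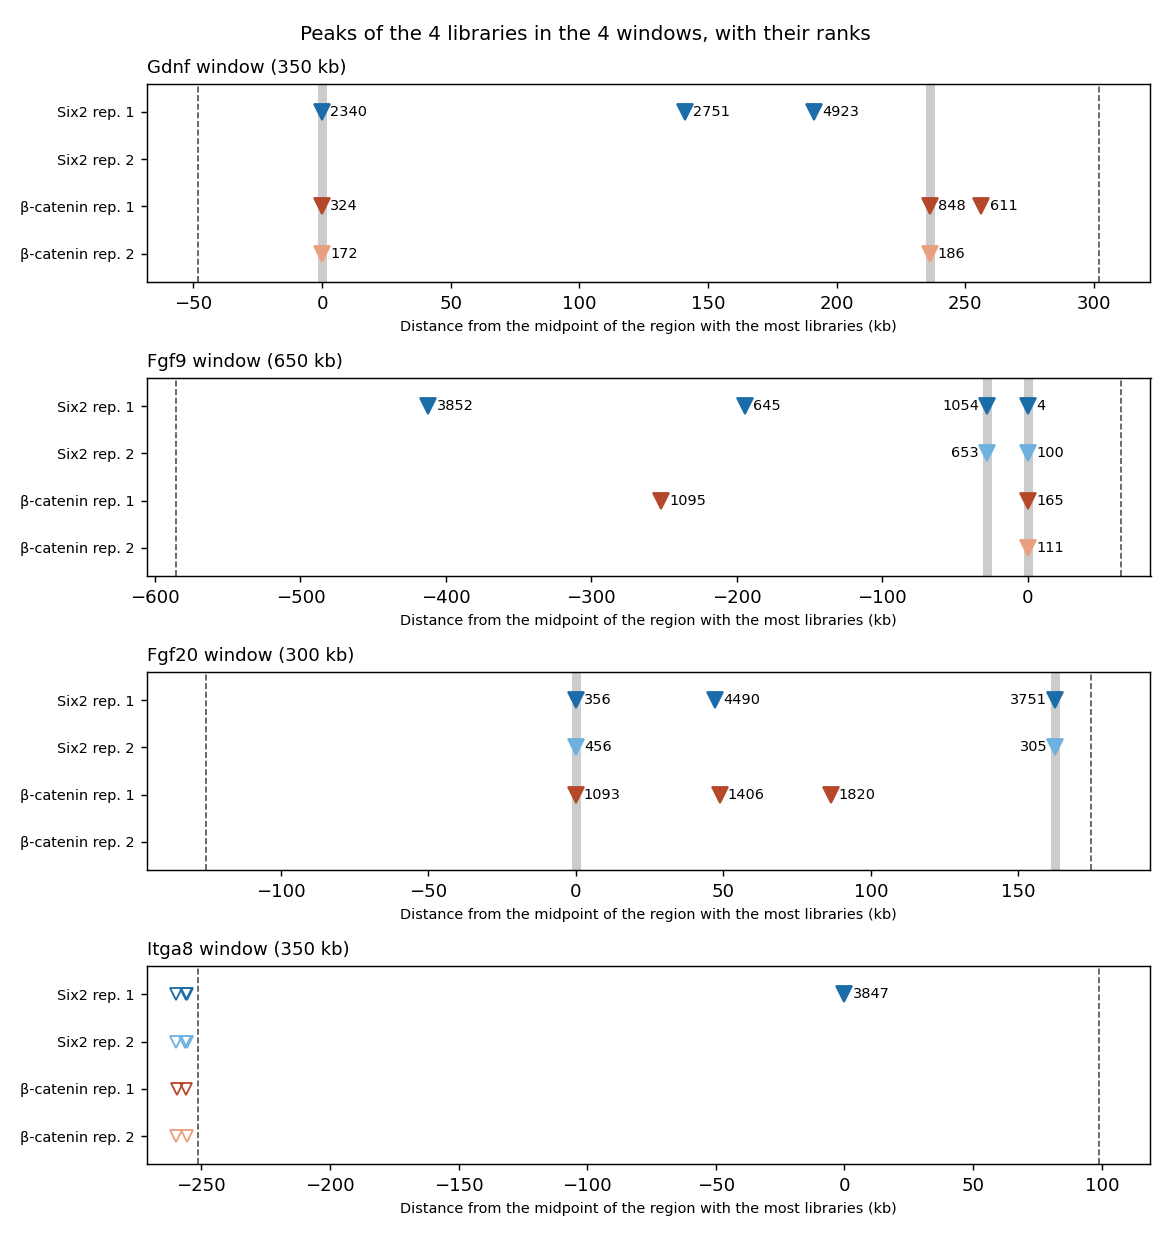
Peaks in the 4 windows (filled triangles) by library, plotted by distance in kb from the midpoint of the window's region with the most libraries, with the rank of each peak beside it. Grey bands mark regions of 2 or more libraries, dashed lines the window edges and open triangles peaks up to 20 kb outside; the Gdnf, Fgf9 and Fgf20 windows each hold 2 bands, and the Itga8 window holds 1 peak with open triangles of all 4 libraries just beyond its left edge.

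In the window of Gdnf, the ligand of the branching signal, β-catenin was called at 2 sites in both libraries, 235.98 kb apart. The region at chromosome 15, 7647937 to 7648156, had β-catenin ranks of 324 in replicate 1 and 172 in replicate 2, which is 17.3% and 14.2% of the way down these lists. Six2 replicate 1 also had a peak there, at rank 2340 (41.5% of its list), and Six2 replicate 2 had none within 235.49 kb. The peaks of the 3 libraries coincided closely. Their midpoints lay within 30.0 bp of each other and 155 bp were common to all of them, against a whole region of 220 bp. In that decile of the Six2 replicate 1 list, 16.1% of peaks were found again. Regions with both β-catenin libraries and Six2 replicate 1 alone made up 1.67% of all regions.

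The other β-catenin region of the Gdnf window, at chromosome 15, 7884139 to 7884265, had rank 848 in the list of replicate 1 and 186 in that of replicate 2. It stood at 45.3% of the longer list and 15.4% of the shorter one. This difference of 29.9 percentage points was reached or passed by 29.9% of the 555 regions of both β-catenin libraries. The midpoints were 8.0 bp apart and 111 of the region's 127 bp were common. No Six2 peak overlapped it, and the nearest, of replicate 1, was 44.95 kb away. Genome-wide, 3.80% of regions had both β-catenin libraries and no Six2 peak.

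The remaining peaks of the Gdnf window were each in 1 library. A β-catenin peak of rank 611 in replicate 1, at 7904221 to 7904380, lay beyond the region at 7884139, and the nearest peak of replicate 2 was 20.09 kb away. In its decile of the list 28.7% of peaks were found again. Six2 replicate 1 had peaks of rank 2751 and 4923 in the middle of the window, at 7788748 to 7789046 and 7839183 to 7839329. Six2 replicate 2 had no peak in the window. Six2 in the Gdnf window thus rested on replicate 1 alone, with 3 peaks ranked from 2340 to 4923. Of 7225 adjoining stretches of 350 kb between the outermost peaks of the chromosomes, 0.983% held 2 or more regions of both β-catenin libraries and 6.44% held at least 1. These stretches ignore genes, whereas the windows were placed on genes with results known, so the share is a background only.

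In the window of Fgf9, a progenitor survival factor, lay the only window site called in all 4 libraries by an overlap of at least 1 bp. It lies at chromosome 14, 59135250 to 59135796, and was rank 4 in Six2 replicate 1, rank 100 in Six2 replicate 2, rank 165 in β-catenin replicate 1 and rank 111 in β-catenin replicate 2. All these ranks are within the first decile of their lists (0.0709%, 6.17%, 8.81% and 9.19%). Regions of all 4 libraries numbered 126 in the genome, 1.64% of all regions. Among them the Fgf9 region was at position 2 by Six2 replicate 1, 27 by Six2 replicate 2, 36 by β-catenin replicate 1 and 22 by β-catenin replicate 2. The median ranks over the 126 regions were 373.5 and 455.0 for Six2 and 322.5 and 406.5 for β-catenin.

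Inside this Fgf9 region the peaks of the antibodies were shifted against each other. Six2 was called at 59135529 to 59135760 in replicate 1 and at 59135592 to 59135796 in replicate 2. β-catenin was called at 59135476 to 59135645 in replicate 1 and at 59135250 to 59135709 in replicate 2. Both β-catenin midpoints lay at lower coordinates than both Six2 midpoints. The nearest pair of midpoints, both of replicate 1, was 84.0 bp apart and the farthest 214.5 bp. The mean midpoints of the antibodies were 149.2 bp apart. The median over the 126 regions of 4 libraries was 37.5 bp, and 10 of them were as far apart or farther. All 4 peaks shared 54 bp, from 59135592 to 59135645. Over the 126 regions, 110 had such a common stretch, and the median of all was 66.5 bp. β-catenin replicate 2 was wide here, at 460 bp, a width reached by 1.32% of its list, and with β-catenin replicate 1 alone the mean midpoints were 108.8 bp apart.

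**Figure D2:**
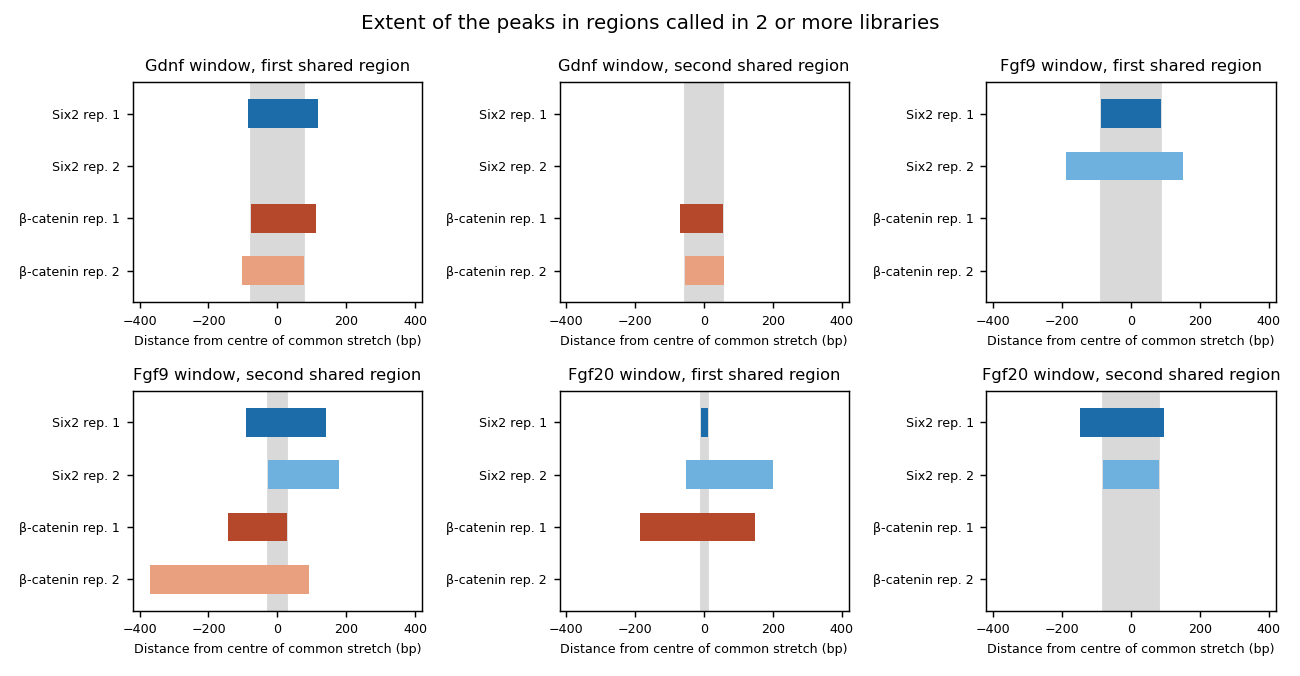
Extent in bp of each peak (bars) in the 6 window regions called in 2 or more libraries, centred on the stretch that the peaks have in common (grey). In the second Fgf9 panel the β-catenin bars extend farther to the left and the Six2 bars farther to the right of a common stretch of 54 bp. The bars of β-catenin replicate 2 and Six2 replicate 1 pass it on both sides. In the first Fgf20 panel the Six2 replicate 1 bar is 20 bp long.

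A Six2 region without β-catenin lay 27.18 kb before the site of 4 libraries, at chromosome 14, 59107731 to 59108069. Its Six2 rank was 1054 in replicate 1 (18.7% of the list) and 653 in replicate 2 (40.3%). The midpoints were 18.0 bp apart, and the whole replicate 1 peak of 177 bp lay inside that of replicate 2. Among the 1349 regions of both Six2 libraries it was close to the middle, with 48.6% and 45.4% of them at lower ranks in replicates 1 and 2. The nearest β-catenin peaks were those of the neighbouring region. Regions of both Six2 libraries and no β-catenin were 12.9% of all regions. Of 3887 stretches of 650 kb, 6.23% held 2 or more regions of both Six2 libraries, as this window did, and 2.91% held a region of all 4 libraries.

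The other 3 Fgf9 window peaks stood alone. The Six2 replicate 1 peak at 58940796 to 58940954 had rank 645, and no peak of replicate 2 lay within 167.03 kb. Of the peaks in that decile of the list, 45.3% were found again. A β-catenin replicate 1 peak at 58883366 to 58883512 had rank 1095, and a Six2 replicate 1 peak at 58723249 to 58723440 had rank 3852. The shared regions of the window were thus both at its far end, 64.2 kb or more from the edge, and the peaks of 1 library were spread over the 384.29 kb before them.

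In the window of Fgf20, the other fibroblast growth factor, Six2 was called at 2 sites in both libraries and β-catenin in replicate 1 alone. The region at chromosome 8, 41325035 to 41325419, was rank 356 in Six2 replicate 1, rank 456 in Six2 replicate 2 and rank 1093 in β-catenin replicate 1. The Six2 ranks were 6.31% and 28.1% of their lists, and the β-catenin rank was 58.4%. β-catenin replicate 2 had no peak within 3580.36 kb. The Six2 replicate 1 peak was 20 bp long, and 0.478% of that list was as narrow. It lay inside the Six2 replicate 2 peak of 253 bp and the β-catenin peak of 334 bp. How many reads lie behind so narrow a peak is not known, and the Six2 midpoints were 72.5 bp apart. Regions of both Six2 libraries with β-catenin replicate 1 alone were 2.74% of all regions.

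The other Six2 region of the Fgf20 window, at chromosome 8, 41487537 to 41487779, was ranked very differently by the libraries. Replicate 1 had it at rank 3751 (66.4% of the list) and replicate 2 at rank 305 (18.8%). Of the 1349 regions of both Six2 libraries, 90.5% had a lower rank in replicate 1 and 21.9% in replicate 2. A gap of this size between percentages, 47.6 points, or a larger one was found at 20.1% of these regions. The positions nevertheless coincided, with midpoints 26.0 bp apart and 161 bp in common. It is 12.2 kb from the window's end, and the nearest β-catenin peak, of replicate 1, was 76.06 kb away. Of 8431 stretches of 300 kb, 2.25% held 2 or more regions of both Six2 libraries and 13.0% at least 1.

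Between these sites the Fgf20 window held 3 peaks of 1 library each. Six2 replicate 1 had a peak of rank 4490 at 41372433 to 41372505, and β-catenin replicate 1 had one of rank 1406 at 41373960 to 41374258. They were 1454 bp apart and did not overlap. A further β-catenin replicate 1 peak, of rank 1820 at 41411497 to 41411699, was near the end of its list of 1873, where 4.79% of peaks were found again. All 3 β-catenin peaks of the window were past the median rank of the replicate 1 list, 937.0, and none was found in replicate 2. At 3 or more regions of β-catenin replicate 1, the window matched 1.16% of the stretches of its length.

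The window of Itga8, the receptor of the set, held a single peak. Six2 replicate 1 was called at chromosome 2, 12201002 to 12201107, at rank 3847 (68.1% of the list) and with a width of 106 bp. The other 3 libraries had no peak in the window, and their nearest midpoints were 255.60 to 255.96 kb away. Of 7225 stretches of 350 kb, 49.7% held at least 1 region of any library and 23.8% exactly 1. A window with 1 region was therefore common.

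The result for Itga8 depends on where the window ends. Within 100 kb outside the windows lay 10 further regions, 5 beside Gdnf, 1 beside Fgf9, none beside Fgf20 and 4 beside Itga8. Regions of all 4 libraries were found at 2 of them, both just before the Itga8 window, 4.39 and 8.38 kb from its edge. They are named here because of the window edge, after their values were seen. The outer one, at chromosome 2, 11941244 to 11941615, was rank 359 and 498 for Six2 and rank 30 and 212 for β-catenin. Its β-catenin replicate 1 rank of 30 was lower than that of any peak of this library inside the 4 windows. The Six2 and β-catenin peaks of replicate 1 did not touch there, ending at 11941392 and starting at 11941404, and were joined by the wider peaks of both replicates 2.

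The inner one, at chromosome 2, 11944819 to 11945605, was a chain of 6 peaks. Six2 was called at both ends of it in both libraries, at 11944872 to 11945051 (rank 550) and 11945389 to 11945605 (rank 1112) in replicate 1, and at 11944819 to 11945037 (rank 611) and 11945322 to 11945593 (rank 815) in replicate 2. β-catenin replicate 1 was at 11944969 to 11945221 (rank 735) and replicate 2 at 11945203 to 11945552 (rank 740), so each β-catenin library overlapped a different end. The 2 regions were 3203 bp apart. Of the 126 regions of all 4 libraries, 6 (4.76%) had another within 5 kb, these included. They were 255.4 kb or more from the single peak inside the window.

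Beside Gdnf, 71.23 kb before its window, both β-catenin libraries were called at chromosome 15, 7528629 to 7528774, at ranks 524 and 809, with no Six2 peak. The remaining 7 outside regions were peaks of 1 library, with ranks from 335 to 5516. Inside the windows, the outermost regions were 12.2 to 251.0 kb from the edges.

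Over the 4 windows as a whole, the peaks of the short lists were found again and those of the long lists often were not. In Six2 replicate 2, 4 of 4 window peaks overlapped replicate 1 (exact 95% interval 39.8 to 100%), against 83.1% of the whole list. In Six2 replicate 1, 4 of 11 overlapped replicate 2 (36.4%, 10.9 to 69.2%), against 24.0%. In β-catenin replicate 2, 3 of 3 overlapped replicate 1 (29.2 to 100%), against 45.6%. In β-catenin replicate 1, 3 of 8 overlapped replicate 2 (37.5%, 8.52 to 75.5%), against 29.5%. Each interval covers the value of the whole list, but with 3 to 11 peaks per library the intervals are wide. These intervals (Clopper-Pearson) take the peaks as independent, and they hold counting error alone.

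Overlap with the other antibody likewise had intervals that covered the values of the whole lists. It was found for 3 of 11 window peaks of Six2 replicate 1 (27.3%, 6.02 to 61.0%, whole list 12.9%) and for 2 of 4 of replicate 2 (50%, 6.76 to 93.2%, whole list 23.6%). For β-catenin it was 3 of 8 in replicate 1 (37.5%, 8.52 to 75.5%, whole list 36.6%) and 2 of 3 in replicate 2 (66.7%, 9.43 to 99.2%, whole list 27.9%). With so few peaks the intervals are too wide to tell the windows from the whole lists. These shares count the same 3 regions from the side of each library and are not separate checks.

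The ranks of the window peaks spanned most of the long lists. Those of Six2 replicate 1 ran from 4 to 4923 with a median of 2751.0, where the median of the list is 2823.0. Those of β-catenin replicate 1 ran from 165 to 1820 with a median of 970.5, where the list has 937.0. In the short lists the window peaks were nearer the top. The 4 of Six2 replicate 2 ran from 100 to 653 (list median 811.5), and the 3 of β-catenin replicate 2 from 111 to 186 (list median 604.5). All of these were found again, and peaks found again were more frequent at the top of both short lists. The share in the first and last decile was 98.1% and 74.2% for Six2 replicate 2. For β-catenin replicate 2 it was 90.8% and 21.5%. Of the 10 window regions of 1 library, 6 were of Six2 replicate 1, 4 of β-catenin replicate 1 and 0 of either replicate 2.

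**Figure D3:**
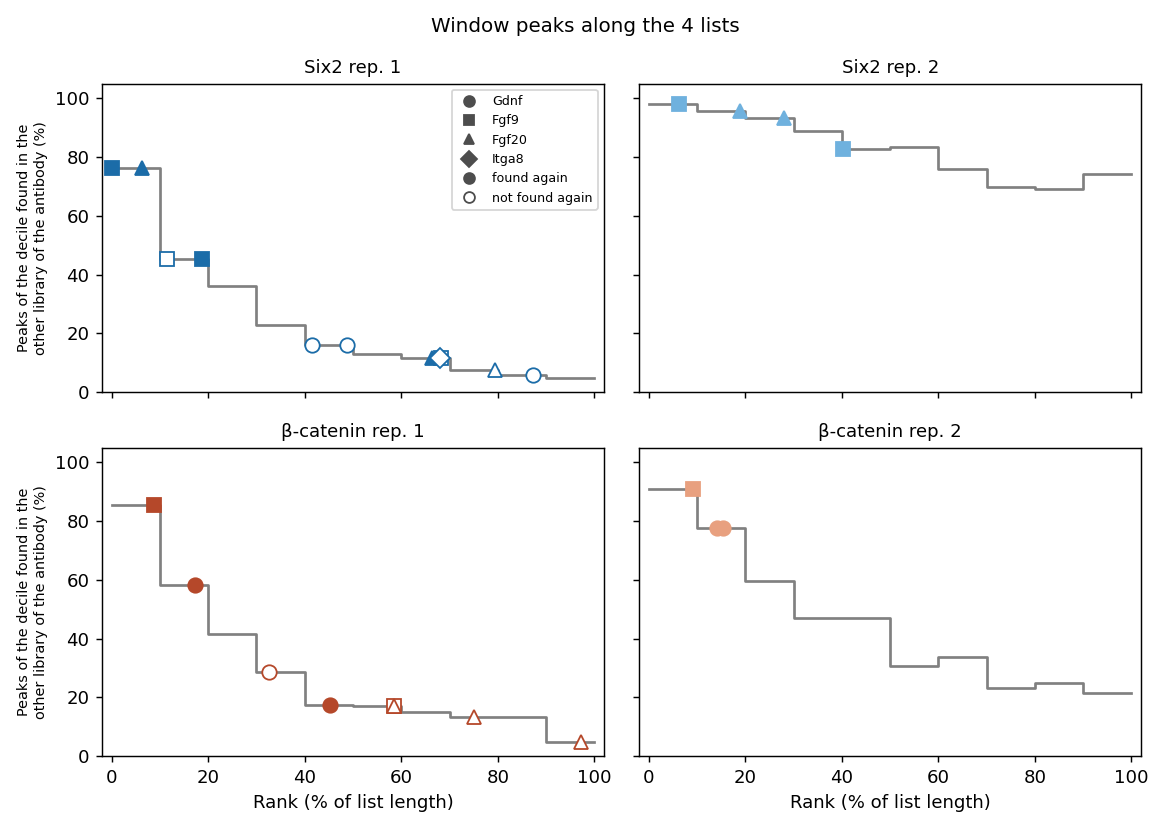
Rank of each window peak as a percentage of its list (horizontal axis) against the percentage of peaks in the same decile of the list that overlap the other library of the antibody (grey steps), for each library. Filled symbols were found again and open symbols were not; all symbols of both replicates 2 are filled, and the open ones of the replicates 1 begin at rank 645 for Six2 and rank 611 for β-catenin.

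Some window peaks were found again from deciles of the long lists in which few peaks were. The Fgf20 region at 41487537 came from a decile of Six2 replicate 1 in which 11.7% of peaks were found again, and the Gdnf region at 7884139 from a decile of β-catenin replicate 1 in which 17.6% were. In both, the shorter list placed the peak in its decile 2. Conversely, the Fgf9 peak at 58940796 was, as a percentage of its list, the highest placed window peak that was not found again.

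Whether the windows hold genes other than the named ones was not analysed here. In the RefSeq gene order of assembly GRCm38, used for names only, the protein-coding neighbours of Gdnf (gene ID 14573) are Egflam on one side and Wdr70 on the other. Fgf9 (14180) follows Zdhhc20 and Micu2 and is followed by 1700129C05Rik, Gm5142 and Rcbtb1. Fgf20 (80857) lies between Msr1 and Micu3. Itga8 (241226) follows Gm46731, Ankrd16 and Gm34768 and is followed by Mindy3 and Pter. Start sites in mm9 were not used here, so no peak was assigned to a gene or given a distance to a start, an exon or an intron.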

How the data were processed

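The deposited files list peak coordinates, a value of another kind than counts or signal, in 3 columns that give chromosome, start and end without a header line, 1 file per library. Per the submitters' processing notes the build was mm9 and CASAVA version 1.6 was used. Peak caller, threshold and control: not given in the sources used here. Starts were read as BED (counted from 0) and are printed 1-based. Peaks of all 4 lists that shared at least 1 bp were merged into regions. The overlap and merging were tested on pairs of simulated lists with known shared sites. Those lists held no chains of peaks, and merging of 4 lists was not tested. Regions named are those of 2 or more libraries and the lowest-ranked peak of each window and library. The rest were summarised, or named because they are few. The windows, members and lists were chosen with earlier results of these data known. Replicates were numbered in accession order. Stretches of window length adjoin one another from the first peak of each chromosome, and a region counts in the one holding its midpoint. Distances to start sites, the planned list of other niche genes and peak sequences need mm9 and were not analysed here. Alternatives were reciprocal overlap of 50%, midpoints within 500 bp, windows wider by 100 kb, the first 50% of each list, ranks divided by list length and leaving out each library. Python 3.11.15, SciPy 1.17.1 and matplotlib 3.10.9 were used.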

Additional observations from a re-analysis of the deposited data

How the results depend on the processing

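Widening the windows by 100 kb on each side raised the number of Six2 peaks to 19 (from 11, replicate 1) and 7 (from 4, replicate 2), and that of β-catenin peaks to 12 (from 8) and 7 (from 3). For these counts within an antibody, its 2 lists were merged on their own. Regions of both Six2 libraries then rose from 4 to 7, where the chain of peaks beside the Itga8 window counts as 2 Six2 regions (as 1 when all 4 lists are merged). Those of both β-catenin libraries rose from 3 to 6. Those of both antibodies, with all 4 lists merged, rose from 3 to 5. With the first 50% of each list, the replicates 1 kept 6 Six2 and 4 β-catenin peaks and the replicates 2 all of theirs. Regions of both Six2 libraries were 3, of both β-catenin libraries 3 and of both antibodies 2. A reciprocal overlap of 50% gave 3, 2 and 3, and midpoints within 500 bp gave 4, 3 and 3. With the reciprocal overlap, the Six2 region lost was the Fgf20 one at 41325035, where the peaks shared 20 bp. The β-catenin region lost was the Fgf9 region of 4 libraries. There the β-catenin replicate 2 peak of 460 bp shared 170 bp with replicate 1 and at most 181 bp with Six2. The Fgf9 region still held both antibodies, but without β-catenin replicate 2. Leaving out 1 library at a time gave 2 to 3 regions of both antibodies. It was 2 without Six2 replicate 1 (the Gdnf region was lost) or without β-catenin replicate 1 (the Fgf20 region was lost). Overlap within an antibody needs both libraries and has no such alternative. Ordered by mean row number, the 6 shared regions began with the Fgf9 region of 4 libraries and ended with the Fgf20 region at 41487537, and dividing ranks by list length left these at 1 and 6. It moved the Gdnf region at 7884139 from 2 to 4, the Fgf20 region at 41325035 from 3 to 5, the Fgf9 region at 59107731 from 4 to 3 and the Gdnf region at 7647937 from 5 to 2. No paired analysis was possible because the labels carry no replicate numbers and no result comes from a test. Depth is unknown, so the absence of a peak is not an absence of binding.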
